A study of Mus musculus with 6 samples.

Results

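The genes described here make, store and break down retinoic acid, the active form of vitamin A: Stra6, Lrat, Dhrs3, Aldh1a1, Aldh1a2, Aldh1a3, Cyp26a1, Cyp26b1 and the receptor gene Rarb. All 9 had a probe named through its RefSeq accession, 10 probes in all with 2 for Rarb, among 19749 genes with a named probe. They were chosen by name with their levels and their ratios between arrays already known, so every level and ratio of these genes is a description and none is tested. Total RNA of whole lung from C57BL/6 mice was measured on 6 Agilent 1-colour arrays, 1 for each of 6 groups. Wild type (WT) mice, mice labelled FcRg-/- (here the FcRg KO label) and mice labelled FceRIa-/- (the FceRIa KO label) each received PBS or mouse histamine-releasing factor (HRF, named mHRF-His in the labels) through the nose. HRF is a secreted protein that can bind IgE; the FcRg chain signals for several Fc receptors, and the FceRIa chain binds IgE in its high-affinity receptor. The age and sex of the mice, the dose, the time after the challenge and whether an array holds RNA of 1 mouse or of several are not given in the sources used here.

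Retinol circulates in blood, enters cells through carriers such as STRA6 and is stored as retinyl esters made by LRAT. Retinol dehydrogenases turn it into retinal, DHRS3 reduces retinal back to retinol, the ALDH1A enzymes oxidise retinal to retinoic acid, and the CYP26 enzymes break retinoic acid down. In the lung, retinoic acid is known for its part in alveolar development and in the upkeep of airway epithelium, and it shapes the homing of lymphocytes. Lrat, Dhrs3, Stra6, Rarb and the Cyp26 genes are textbook examples of genes that retinoic acid itself can induce.

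Levels are log2 of the processed signal over the 75th percentile of the array, so that 0 marks that percentile, and levels of different probes are not compared with each other. Between 67.5% and 79.6% of the 59305 non-control spots were well above background, most of them on the WT PBS array, and no spot was saturated. With 1 array per group, a ratio has no replicate check. The only error attached to a value is the scanner software's estimate for the spot, which came to 0.20 on the log2 scale for a ratio of 2 bright spots and covers the reading of the spot, not the mouse. All of the 8 alveolar type 2, 6 alveolar type 1 and 7 airway secretory cell markers with a probe were well above background on all 6 arrays. Neither targeted gene was low under its label: Fcer1g stood between 3.93 and 4.61 over the 6 arrays, and Fcer1a between -4.70 and -4.19 in WT and under the FcRg KO label but at -0.90 and -1.16 under the FceRIa KO label. Whether the probes lie in the deleted parts and whether each label matches its array are not known here. The ratios under the KO labels hold for the arrays so labelled, and both knockout groups are named by their labels throughout.

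Promoter sequences show which of these genes carry a retinoic acid response element next to their start. RefSeq windows of GRCm38.p6, from 250 bases before to 50 bases after a start, were at hand for 8 of the 9 genes (14 windows). Aldh1a3 had no window and was not searched. The DR5 element, a direct repeat with a spacer of 5 bases, was found in the windows of 2 genes, Rarb and Cyp26a1, and in 0.0974% of all 32851 windows of the same length. The DR2 element, with a spacer of 2 bases, was found in none of the 14 windows and in 0.268% of all windows. Both strands were searched, and each copy of the repeat was allowed the usual alternatives (A or G first, then G, then G or T, then TCA). The single copy AGGTCA stood in none of the 14 windows and in 16.3% of all windows, and AGTTCA in 3 of them (1 each of Stra6, Rarb and Cyp26a1) and in 14% of all windows. Rarb and Cyp26a1 are shown because they hold the element, printed in capitals, and Cyp26b1 and Lrat because their levels moved together over the arrays.
Rarb (chr14:16575427-16575726, strand -): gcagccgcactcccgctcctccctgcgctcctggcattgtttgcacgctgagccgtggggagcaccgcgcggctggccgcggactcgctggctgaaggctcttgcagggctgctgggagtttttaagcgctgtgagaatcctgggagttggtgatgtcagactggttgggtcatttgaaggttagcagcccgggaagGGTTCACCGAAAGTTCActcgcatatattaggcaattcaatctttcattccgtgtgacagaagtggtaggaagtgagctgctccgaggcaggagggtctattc
Cyp26a1 (chr19:37697558-37697857, strand +): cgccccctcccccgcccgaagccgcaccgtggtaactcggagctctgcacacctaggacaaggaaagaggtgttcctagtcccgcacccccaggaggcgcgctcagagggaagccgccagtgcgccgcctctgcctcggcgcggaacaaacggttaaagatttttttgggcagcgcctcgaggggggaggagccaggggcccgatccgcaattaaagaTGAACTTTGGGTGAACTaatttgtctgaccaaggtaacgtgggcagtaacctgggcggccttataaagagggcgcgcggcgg
Cyp26b1 (chr6:84593761-84594060, strand -): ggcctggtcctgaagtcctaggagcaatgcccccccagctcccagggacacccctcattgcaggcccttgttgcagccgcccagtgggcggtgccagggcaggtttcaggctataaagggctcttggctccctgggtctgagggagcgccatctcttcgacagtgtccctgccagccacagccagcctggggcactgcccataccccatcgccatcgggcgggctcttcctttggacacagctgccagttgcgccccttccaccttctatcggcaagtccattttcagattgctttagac
Lrat (chr3:82903925-82904224, strand -): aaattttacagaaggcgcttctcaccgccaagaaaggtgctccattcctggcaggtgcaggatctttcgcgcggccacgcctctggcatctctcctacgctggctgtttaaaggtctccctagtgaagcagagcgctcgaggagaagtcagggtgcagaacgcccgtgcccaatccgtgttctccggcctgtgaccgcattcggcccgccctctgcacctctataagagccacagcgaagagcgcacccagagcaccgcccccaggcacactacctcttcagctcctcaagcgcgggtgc

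In the Rarb window the DR5 element read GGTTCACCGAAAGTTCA on the strand of the gene, 53 to 37 bases before the start. In the Cyp26a1 window it lay on the opposite strand, where it read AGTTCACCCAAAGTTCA, 32 to 16 bases before the start. The windows of Cyp26b1 and Lrat held neither element, which says only that these letters are not in these 300 bases.

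The largest differences between arrays were those of Aldh1a3, Cyp26b1 and Lrat. In WT lung the HRF array carried more Aldh1a3, an enzyme that makes retinoic acid, with smaller differences the same way for Cyp26b1 and Lrat. On the arrays of both KO labels, Cyp26b1 and Lrat were instead lower on the HRF array than on the PBS array, and their PBS levels were far above that of WT PBS. Aldh1a1, Aldh1a2, Dhrs3, Stra6 and Rarb stayed within 2-fold between HRF and PBS under all 3 genotype labels, and Cyp26a1 was too dim to compare under the KO labels.

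**Figure D1:**
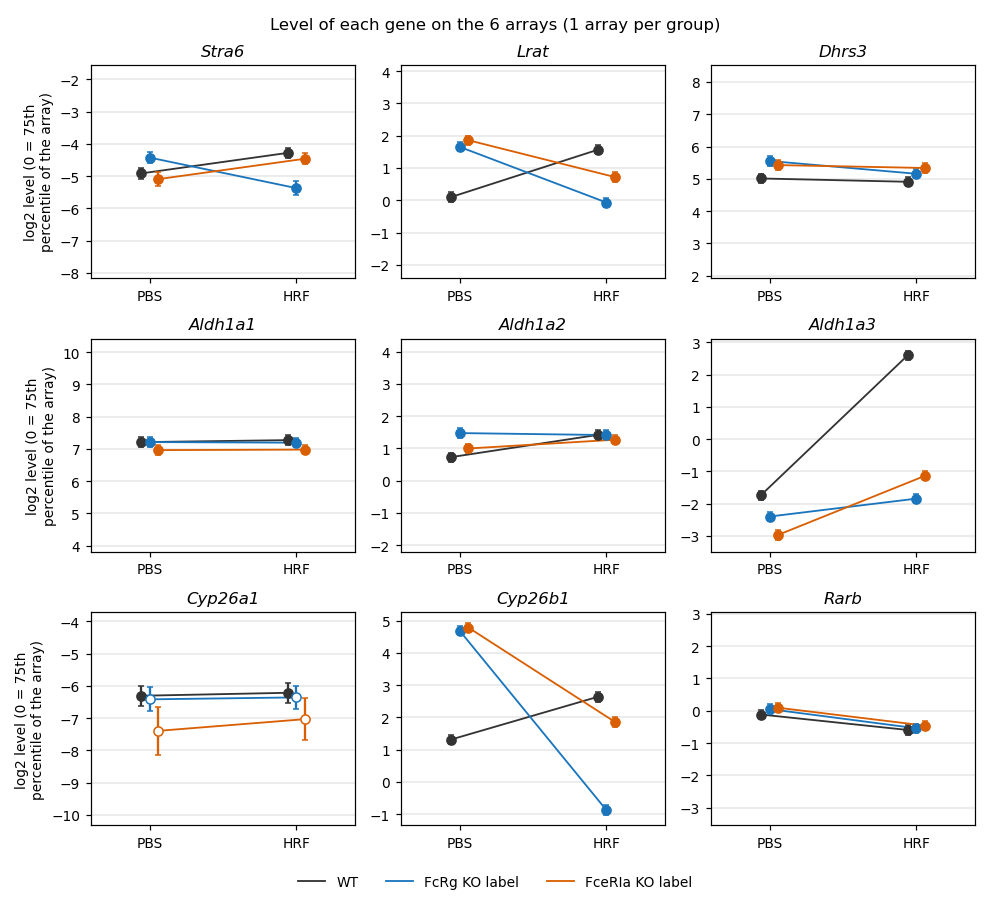
Levels of the 9 genes on the 6 arrays, as log2 of the signal over the 75th percentile of the array; each panel spans the same number of log2 units. Lines join the PBS and HRF array of a genotype label, bars are the scanner software's error of the spot, and open points were not well above background. Cyp26b1 and Lrat are higher with HRF than with PBS in WT and lower under both KO labels, while Aldh1a3 is highest on the WT HRF array.

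Aldh1a3 is an aldehyde dehydrogenase of the last step of retinoic acid synthesis, known from airway and other epithelia. Its level was -1.74 with PBS and 2.59 with HRF in WT, -2.40 and -1.84 under the FcRg KO label, and -2.96 and -1.13 under the FceRIa KO label. The WT HRF array stood above the other 5, which lay between -2.96 and -1.13. The HRF to PBS ratio was 20.2-fold in WT (log2 4.33), 9th from the top among 16663 genes measured on both arrays. It was 3.55-fold (log2 1.83) under the FceRIa KO label and 1.47-fold (log2 0.55) under the FcRg KO label. Higher with HRF in all 3 pairs, Aldh1a3 thus passed 2-fold in WT and under the FceRIa KO label. The PBS array of the FceRIa KO label was 2.33-fold below WT PBS (log2 -1.22, and -0.84 with normexp background correction), so that its PBS array was the lowest of the 6.

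The other enzymes of the same step differed little between HRF and PBS. Aldh1a1, abundant in airway secretory cells, had levels between 6.96 and 7.27 on the 6 arrays, and its log2 ratios were 0.06 in WT, -0.02 under the FcRg KO label and 0.02 under the FceRIa KO label. Aldh1a2, made by mesothelial cells, some fibroblasts and some dendritic cells, stood at 0.73 with PBS and 1.42 with HRF in WT, 1.48 and 1.41 under the FcRg KO label, and 0.999 and 1.27 under the FceRIa KO label. WT PBS was its lowest array, and the ratio in WT was 1.61-fold (log2 0.69). Its ratios under the KO labels were -0.06 and 0.27 on the log2 scale, the first of them inside the scanner error. The 3 enzymes of this step thus gave log2 ratios of 0.06, 0.69 and 4.33 in WT.

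Cell type markers were measured beside these enzymes, since whole lung cannot tell fewer cells of a type from less RNA per cell. In WT, the dendritic cell list had a median log2 ratio of 0.73 over its 8 markers with a probe. These ran from Xcr1 at -0.17 to Batf3 at 2.41, with Cd209a at 1.96. The summed level of the list was 14.3 with PBS and 25.3 with HRF. The airway secretory list stood at -0.13 over 7 markers, the mesothelial list at -0.15 over 9, with summed levels of 41.9 and 35.1, and the basal and squamous list at -0.34, with Krt15 at -1.39, Trp63 at -0.16 and Sprr1a at 0.83. The neutrophil list stood at 1.32 over 8 markers, which ran from Csf3r at -0.80 to Il1r2 at 2.41. Its summed level was 165 with PBS and 202 with HRF, a sum in which the bright Csf3r, at 6.52 and 5.72, weighs heavily. Between the PBS arrays of the FcRg and FceRIa KO labels and WT, Aldh1a2 stood at 0.75 and 0.27. There the mesothelial list had medians of 0.57 and 0.24, the dendritic cell list 0.15 and -0.08, and the fibroblast list -0.06 and -0.27. The part of any of these cells in the ratios of Aldh1a2 and Aldh1a3 was not tested.

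Cyp26b1 encodes a cytochrome P450 that degrades retinoic acid. Its level was 1.31 with PBS and 2.64 with HRF in WT, 4.69 and -0.87 under the FcRg KO label, and 4.78 and 1.85 under the FceRIa KO label. The PBS arrays of both KO labels were the highest, 0.09 apart and so within the scanner error of 0.20, and the HRF array of the FcRg KO label was the lowest. The HRF to PBS ratio was 2.50-fold higher in WT (log2 1.32), 47.2-fold lower under the FcRg KO label (log2 -5.56) and 7.61-fold lower under the FceRIa KO label (log2 -2.93). Among genes measured on both arrays, it was the 2nd lowest of 16083 ratios under the FcRg KO label and the lowest of 15789 under the FceRIa KO label. In WT it was the 232nd highest of 16663.

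The PBS arrays differed too. Cyp26b1 was 10.4-fold higher on the PBS array of the FcRg KO label than on WT PBS (log2 3.38), the 2nd highest of 16258 ratios, and 11.1-fold higher on that of the FceRIa KO label (log2 3.47), the 4th highest of 16027. Both ratios share the WT PBS array. On the HRF arrays, the level under the FcRg KO label (-0.87) was below that of WT (2.64), and that under the FceRIa KO label (1.85) lay between them. The low HRF to PBS ratios under the KO labels thus go with PBS levels above every other array, and under the FcRg KO label also with an HRF level below that of WT PBS.

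Lrat, the enzyme that stores retinol as esters, shared the order of its arrays and the signs of its ratios with Cyp26b1. Its range over the 6 arrays was smaller, at 1.93 log2 units against 5.66, but its ratio in WT was slightly larger (log2 1.47 against 1.32). Its level was 0.10 with PBS and 1.56 with HRF in WT, 1.66 and -0.07 under the FcRg KO label, and 1.86 and 0.72 under the FceRIa KO label. From the highest to the lowest array, Lrat and Cyp26b1 had the same order: PBS of the FceRIa KO label, PBS of the FcRg KO label, WT HRF, HRF of the FceRIa KO label, WT PBS and HRF of the FcRg KO label. Of the 5 steps between neighbours in this order, 2 of Lrat and 1 of Cyp26b1 lay within the scanner error. The lowest pair of Lrat, 0.17 apart, was among them and changed places with scaling on the array median. HRF to PBS ratios of Lrat were 2.76-fold higher in WT (log2 1.47), 3.31-fold lower under the FcRg KO label (log2 -1.73) and 2.21-fold lower under the FceRIa KO label (log2 -1.14). Against WT PBS, Lrat was 2.95-fold higher on the PBS array of the FcRg KO label and 3.39-fold higher on that of the FceRIa KO label.

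**Figure D2:**
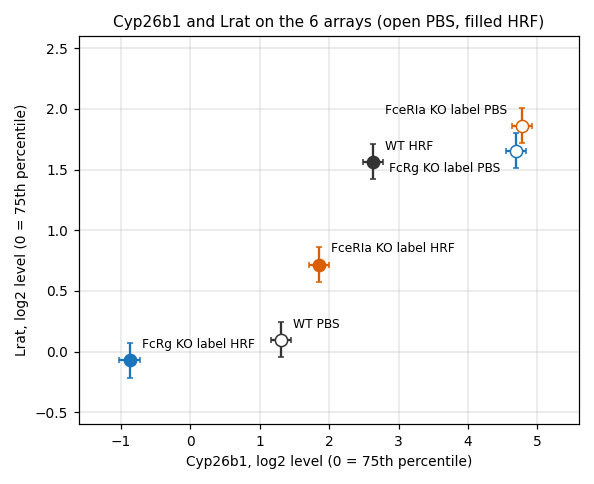
Level of Lrat (vertical) against that of Cyp26b1 (horizontal) on the 6 arrays, both log2 over the 75th percentile of the array, with the scanner software's error as bars; open points are PBS arrays and filled points HRF arrays. The PBS arrays of both KO labels lie at the upper right, between 4.69 and 4.78 for Cyp26b1, and the HRF array of the FcRg KO label at the lower left.

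Markers of tissues that a lung sample can carry along moved with some of these arrays. The fat cell list, with 13 of 13 markers above background on some array, had a median log2 ratio of -1.24 under the FcRg KO label, where Cyp26b1 and Lrat were also lower with HRF. Under the FceRIa KO label the list stood at 1.14, while Cyp26b1 and Lrat were lower. Its summed level was 135 and 126 in WT with PBS and HRF, 226 and 109 under the FcRg KO label, and 109 and 225 under the FceRIa KO label. The cardiac muscle list (9 of 9 markers) stood at -0.34, -0.91 and -0.13 in WT, the FcRg KO label and the FceRIa KO label, and its summed levels ran from 267 to 512. The basal and squamous list, with 8 of 10 markers above background on some array, had a median of -0.39 under the FcRg KO label and 0.04 under the FceRIa KO label, with summed levels from 6.25 to 9.01 over the 6 arrays. Its markers were uneven under the FcRg KO label, with Krt5 at -2.20 and Krt15 at -1.95, Krt14 at -0.39 and the basal cell factor Trp63 at -0.01. Medians of the fibroblast list were -0.21, -0.06 and -0.18, those of the endothelial list -0.23, 0.02 and -0.04, and those of the mesothelial list -0.15, -0.11 and 0.24. The part of these tissues in the ratios of Cyp26b1 and Lrat was not tested.

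Stra6, the retinol carrier of the cell membrane, was dim but above background on all 6 arrays. Its level was -4.92 with PBS and -4.28 with HRF in WT, -4.43 and -5.37 under the FcRg KO label, and -5.09 and -4.46 under the FceRIa KO label. The HRF array of the FcRg KO label was the lowest, as for Cyp26b1 and Lrat. For Stra6 it stood 0.28 below the next array, within the scanner error of 0.30. With normexp, WT PBS was level with it, both at -3.60. The lowest step of Lrat was within the scanner error too. Log2 ratios were 0.64 in WT, -0.95 under the FcRg KO label and 0.63 under the FceRIa KO label, so that Stra6 went with Lrat in WT and under the FcRg KO label and against it under the FceRIa KO label. The ratio under the FcRg KO label, the nearest to the 2-fold mark from inside, was -1.0 in the deposited value table, which has 1 decimal, and -0.42 with normexp.

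Dhrs3, the retinal reductase, lay between 4.91 and 5.55 on all 6 arrays. Its log2 ratios were -0.10 in WT, -0.40 under the FcRg KO label and -0.09 under the FceRIa KO label. The PBS arrays of the FcRg and FceRIa KO labels, at 5.55 and 5.43, were its highest, and WT PBS stood at 5.01. None of the 5 steps between neighbouring arrays passed the scanner error of 0.20, but wider differences did. Beyond it were the ratio under the FcRg KO label and the PBS arrays of the FcRg and FceRIa KO labels over WT PBS (log2 0.54 and 0.41).

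Cyp26a1, the other retinoic acid hydroxylase, was dim. It was well above background in WT alone, at -6.31 with PBS and -6.21 with HRF, a ratio of 0.09 with a scanner error of 0.44. Under the KO labels, where it stayed near background on all 4 arrays, no ratio is given. A DR5 element 32 to 16 bases before its start therefore belongs to a gene whose probe was dim on all 6 arrays.

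Rarb, a retinoic acid receptor, was measured by 2 probes. The brighter probe stood at -0.12 with PBS and -0.60 with HRF in WT, 0.05 and -0.54 under the FcRg KO label, and 0.09 and -0.46 under the FceRIa KO label. All 3 HRF arrays lay below all 3 PBS arrays. Log2 ratios were -0.48, -0.59 and -0.55 with this probe and -0.57, -0.57 and -0.35 with the other, in the same order of labels. Those of the brighter probe were beyond the scanner error of 0.20, and all 6 ratios were short of 2-fold. With scaling on the median, the WT ratio of Rarb was -0.26. Rarb, whose DR5 element is printed above, was thus lower with HRF under all 3 labels. Aldh1a3 was 20.2-fold higher with HRF in WT, 1.47-fold under the FcRg KO label and 3.55-fold under the FceRIa KO label. A link between the 2 genes, or with the element, was not tested.

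**Figure D3:**
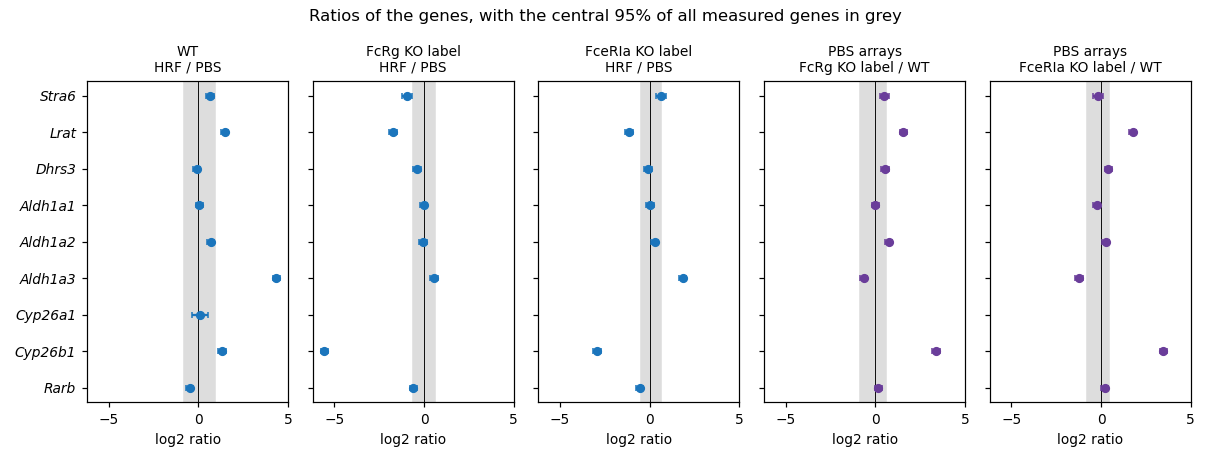
Log2 ratios of the 9 genes for HRF over PBS under each genotype label (blue) and between PBS arrays of each KO label and WT (purple), with the scanner software's error as bars; grey marks the central 95% of all genes measured on both arrays. Cyp26b1 and Lrat lie outside the grey band in all 5 comparisons and Aldh1a3 in WT, under the FceRIa KO label and between the PBS arrays of the FceRIa KO label and WT, while Stra6 (FcRg KO label), Rarb (FceRIa KO label) and Aldh1a2 (PBS of the FcRg KO label against WT) lie just outside it; ratios with an array not well above background are left out.

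In number, 3 of 9 genes were at least 2-fold higher with HRF in WT (Aldh1a3, Cyp26b1 and Lrat), where 2.32% of all 17435 genes compared were, and 0 were at least 2-fold lower, where 1.52% were. Under the FcRg KO label 0 of 8 were higher (0.765% of all 16592 genes) and 2 were lower (1.18%), and under the FceRIa KO label 1 of 8 was higher (1.48% of all 16314) and 2 were lower (0.447%). Between PBS arrays, 2 of 9 genes were higher under the FcRg KO label than in WT (0.679% of all genes) and 0 lower (3.04%), and 2 were higher under the FceRIa KO label (0.512%) and 1 lower (2.88%). Since the genes were chosen with these values known, nothing is read from these shares. The central 95% of log2 ratios over all measured genes ran from -0.80 to 0.94 in WT, from -0.64 to 0.58 under the FcRg KO label and from -0.50 to 0.64 under the FceRIa KO label.

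Most of the other retinoid genes stayed within 2-fold. Of 66 further genes listed by role, 62 could be compared in WT, where 5 were at least 2-fold higher and 1 lower, against 2.32% and 1.52% of all genes. Under the FcRg KO label 1 of 58 was higher and 1 lower (0.765% and 1.18% of all genes), and under the FceRIa KO label 1 of 59 was higher and 0 lower (1.48% and 0.447%). Their median log2 ratios were 0.01, -0.05 and 0.03, against -0.04, 0.00 and -0.01 over all genes. In a limma fit of the average HRF effect over the 3 genotype labels, 0 of the 63 listed genes tested were higher and 0 lower past an adjusted p of 0.05, as were 0 and 0 of all 17605 genes; 8 listed genes and 1552 genes in all had an unadjusted p under 0.05, and the lowest adjusted p was 0.557. That fit has 2 residual degrees of freedom, and its residual is the difference between genotype labels in the response, not the spread between mice.

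Among the retinol and retinal dehydrogenases and reductases, 2 of 15 genes compared were at least 2-fold higher in WT, against 2.32% of all genes. Rdh10, the main retinol dehydrogenase of the embryo, stood at -0.57 with PBS and 0.49 with HRF in WT (log2 ratio 1.06), while its other 4 levels lay between -0.64 and -0.43 (ratios 0.04 under the FcRg KO label and 0.18 under the FceRIa KO label). Dhrs9, a retinol dehydrogenase of epithelia and myeloid cells, stood at -5.41 and -4.08 in WT (1.33, but 0.79 with normexp), with ratios of 0.00 and 0.26 under the KO labels. WT HRF was the highest array for both genes, as it was for Aldh1a3. Of the other 13 dehydrogenases and reductases compared in WT, the 11 measured on both arrays stayed within 2-fold, and Rdh7 and Rdh16, above background on 1 array, have only a lower bound.

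Rbp4, which carries retinol in blood, had log2 ratios of 0.09, -0.12 and 0.21 in WT, the FcRg KO label and the FceRIa KO label. Crabp1 stood at 0.07, 0.49 and -0.11 and Crabp2 at 0.01, -0.15 and 0.06; both bind retinoic acid within the cell. Of the 9 transport and binding genes, 0 were at least 2-fold higher in WT and 1 was lower, against 2.32% and 1.52% of all genes. The lower gene was Ttr at -1.02, but -0.12 with normexp and -0.80 with scaling on the median. It was well above background on 2 of the 6 arrays. Aldh1a7, a close relative of Aldh1a1 whose signal may be shared between the 2 probes, stood at 0.35, 0.06 and 0.03. Cyp26c1, the remaining retinoic acid hydroxylase of the family, did not stand well above background on any of the 6.

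All 12 receptor and cofactor genes stayed within 2-fold in all 3 pairs, with log2 ratios from -0.36 to 0.22 in WT, from -0.32 to 0.03 under the FcRg KO label and from -0.37 to 0.11 under the FceRIa KO label. Most genes did so too. The shares of all genes at least 2-fold higher and lower were 2.32% and 1.52% in WT. They were 0.765% and 1.18% under the FcRg KO label and 1.48% and 0.447% under the FceRIa KO label. Rara stood at 0.22, 0.03 and -0.13, Rarg at -0.21, -0.32 and 0.11, and Rxra, the usual partner of these receptors, at -0.36, -0.30 and -0.09.

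Among 18 genes known to respond to retinoic acid, 3 were at least 2-fold higher in WT, where 2.32% of all genes were. Foxp3, the factor of regulatory T cells, stood at -4.38 with PBS and -2.73 with HRF (log2 ratio 1.65), Ccr9, a gut-homing chemokine receptor, at -1.98 and -0.82 (1.16), and Cebpe, a factor of granulocyte maturation, at -1.27 and -0.16 (1.12). Under the FcRg KO label Cebpe stood at 1.09, Foxp3 at 0.22 and Ccr9 at -0.05. Under the FceRIa KO label their ratios were 0.20, 0.81 and -0.02. The T cell list had medians of 0.50, -0.17 and 0.34 over its 7 markers and the neutrophil list 1.32, 0.10 and 0.06, and their part in these ratios was not tested. Ucp1, a brown fat gene, stood at -6.44 under the FcRg KO label and 2.77 under the FceRIa KO label, beside the fat cell list given above.

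**Figure D4:**
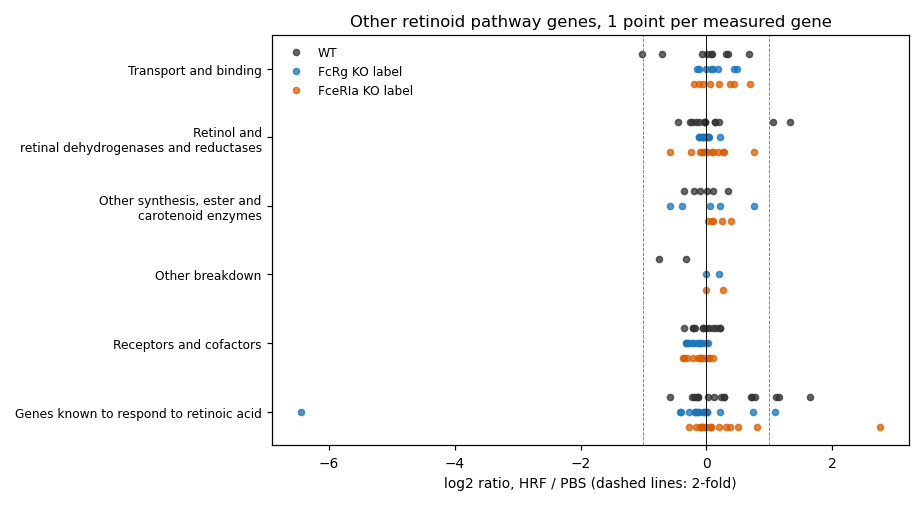
Log2 ratio of HRF over PBS for the other retinoid pathway genes measured on both arrays, 1 point per gene, by role (vertical) and genotype label (colour); dashed lines mark 2-fold. Most points lie within 2-fold, and those outside in WT are Rdh10, Dhrs9, Foxp3, Ccr9, Cebpe and Ttr.

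Genes with a pattern most like that of Aldh1a3 and of Cyp26b1, the 2 genes whose level ranged over at least 2 log2 units, were sought among 554 genes that ranged as widely and were above background on at least 3 arrays. Nearest to Aldh1a3 over the 6 arrays were Serpina3f (Pearson r 0.998), Calhm6 (0.996), Cyp7b1 (0.994), Has2 (0.993) and Iigp1 (0.993). In each of these the WT HRF array stood above the other 5, for example at 1.82 for Serpina3f, a serine protease inhibitor, against -2.86 to -1.25, so that the correlation rests largely on that array. Among the 5 nearest to Cyp26b1 were Otor (0.866), Tnfsf18 (0.780), Snorc (0.752) and Krt5 (0.738), looser matches that were lowest on the HRF array of the FcRg KO label. Otor and Tnfsf18 were not well above background on that array, so their low values there, and the correlations that use them, rest on signals near the floor. Lrat, with a range of 1.93, fell just short of the width asked of these genes. These values describe 6 arrays that share 1 slide and carry no test.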

How the data were processed

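Cy3-labelled total RNA of whole lung was hybridised to 6 Agilent 1-colour arrays, 1 per group. Per the file headers, the scanner software was Agilent Feature Extraction 10.7.3.1 and the array design was annotated on mm9. Its deposited processed signal, an intensity, was background-subtracted and detrended within the array per the file headers, with no scaling between arrays; its deposited error estimate and the deposited raw spot and background medians are intensities too. The authors' value table holds log2 values, in the direction of the scanner files (r of 0.998, 0.997 and 0.997 for differences between arrays), with an unknown centre per probe; the median of its WT PBS column was 0.1 and that of the others 0.

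Levels are processed signals over the 75th percentile of their array (1197 to 1622), in log2, without control and outlier spots, averaged over the spots of a probe. A RefSeq accession was listed for 32335 of 55681 probes, and the RefSeq table of GRCm38.p6 named 26056, giving 19749 genes; its gene coordinates are not used because the builds differ. Where a gene had more than 1 probe (5269 genes), the one with the highest mean stood for it. Comparing a gene required 1 array of a pair to be well above background; if the other was not, the ratio was a lower bound, set from that array's own signal or its dimmest spot above background, whichever was higher. Ratios of at least 2-fold were counted. The average HRF effect was fitted with limma 3.58.1 under R 4.3.3 (terms for genotype label and challenge, lmFit with eBayes, Benjamini-Hochberg at 0.05), and the fit was tested on simulated data. The simulated noise was independent and set below the residual spread of these arrays. That test therefore checks the code of the fit, not its power here. Other steps used Python 3.11.15, numpy 2.4.6, pandas 2.3.3 and matplotlib 3.10.9.

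The genes, lists and rules were chosen with earlier results of these data known. The text names all 9 genes; listed pathway genes at least 2-fold off in a pair, plus 10 named whatever their values; the 5 genes most like Aldh1a3 and Cyp26b1; and up to 4 markers per list. Rdh7, Rdh16, Krt14, Trp63, Sprr1a, Xcr1 and Csf3r were named after their values were seen. Some genes that this rule names are not reported here. Alternatives were the deposited table, quantile normalization after normexp (offset 50), the median as the scale, no filter and a stricter one, the mean over probes, and fits without each genotype label's pair.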

Additional observations from a re-analysis of the deposited data

Results flagged for a closer look

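Cyp26b1 and Lrat were each at least 2-fold higher with HRF in 1 pair of arrays and at least 2-fold lower in the others. The log2 ratio of Cyp26b1 was 1.32 in WT, -5.56 under the FcRg KO label and -2.93 under the FceRIa KO label. That of Lrat was 1.47 in WT, -1.73 under the FcRg KO label and -1.14 under the FceRIa KO label. Each genotype label has 1 pair of arrays, so the difference between labels was not tested. The PBS levels of both KO labels, which enter these ratios, stood 10.4-fold and 11.1-fold above WT PBS for Cyp26b1.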

How the results depend on the processing

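The 13 ratios of the 9 genes past 2-fold were all of Aldh1a3, Cyp26b1 and Lrat. Each has 1 probe and was well above background on all 6 arrays. For these genes, changing the filter or averaging probes returns the main value. Only the deposited table, normexp and median scaling could move their ratios. All 13 kept their sign under the 6 alternatives for ratios, and 12 stayed past 2-fold. The exception was Aldh1a3 between the PBS arrays of the FceRIa KO label and WT (-1.22), at -0.84 with normexp and -0.99 with scaling on the median, where 0 genes were counted lower there, against 2 in the deposited table, which also takes in the dim Cyp26a1. Of 28 ratios under 2-fold, 26 stayed there. Stra6 under the FcRg KO label reached -1.0 in the deposited table, and Aldh1a2 between the PBS arrays of the FcRg KO label and WT rose from 0.75 to 1.02 with scaling on the median. That scaling moved the median of all genes by 0.22 in WT and by 0.27 and 0.23 between the PBS arrays of the FcRg and FceRIa KO labels and WT, so ratios are to be read against it. For the other retinoid genes, the count lower in WT was 0 with normexp and with median scaling, and the count higher was 4 with normexp, without Dhrs9. Under the FcRg KO label 2 were lower in the deposited table, and with no filter 2 were higher and 4 lower. Under the FceRIa KO label 2 were higher in the deposited table. Their median in WT was 0.09 with normexp, 0.00 in the deposited table, 0.23 with median scaling, -0.01 with no filter and 0.00 with the mean of probes. Under the FcRg KO label it was -0.03, 0.00, -0.09, -0.06 and -0.06 in the same order, and under the FceRIa KO label 0.00 in the deposited table, 0.08 with median scaling and 0.04 with no filter. The limma fit called 0 genes under each alternative, fits without a pair included. The main fit had 2 residual degrees of freedom and those without a pair had fewer. Repeated counts of 0 therefore say little about stability. No paired analysis was possible because the labels carry no replicate numbers to pair arrays by; the limma fit does set HRF against PBS within each genotype label. Dim probes, Cyp26a1 and Stra6 among them, limit what their ratios can show.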

Other observations

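The order of the 6 arrays that Cyp26b1 and Lrat share was counted over all genes after their values were seen. Because the order was taken from Cyp26b1 itself, nothing is read from the count. Of 15679 genes well above background on all 6 arrays, 5 had this order, Cyp26b1 and Lrat included, and the other 3 (Uhrf1bp1, Ppp2r1a and Mcm3ap) ranged over 0.15 to 0.27 log2 units, against 5.66 for Cyp26b1 and 1.93 for Lrat. With normexp 12 genes had it, 2 had it in the deposited table, and with median scaling 20 had that of Cyp26b1. Lrat kept the order of Cyp26b1 with normexp and in the deposited table and departed from it at the 2 lowest arrays with scaling on the median. Over all genes above background on the 6 arrays, 99.9% ranged over less than Cyp26b1 and 99.9% over less than Aldh1a3, and the share was 98.2% for Lrat and 29.9% for Aldh1a1.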
